A study of Mus musculus with 4 samples.

Results

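The Hox genes, the homeobox transcription factors that record a cell's position along the body axis, were followed in a mouse mammary epithelial line with and without depletion of the glucocorticoid receptor (GR). They were taken by name, as every non-control probe whose gene name in the scanner files starts with Hoxa, Hoxb, Hoxc or Hoxd and a number. This gave 50 probes for 38 genes out of 41163 probes with a signal on all 4 arrays. Of the 39 Hox genes of the mouse, 1, Hoxc11, had no probe of that name. EPH-4 is a line of spontaneously immortalized, non-malignant mouse mammary epithelial cells. EV-50 is an EPH-4 clone carrying a puromycin marker and the empty H1-2 vector, and shGR-19 is a clone carrying the marker and a short hairpin RNA against GR, with a GR status given in the labels as "depleted <50%". Both were grown without serum and with 2 µg/mL puromycin. Each line was 1 clone, so that depletion and clone cannot be told apart. There were 2 arrays for each line, and the labels do not say whether the duplicates came from separate cultures, so the p-values measure the spread between these arrays only. The comparison was made to ask which genes depend on GR when no hormone is added.

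The mammalian Hox genes lie in 4 clusters, and the genes of a cluster are numbered from its 3′ end, where the genes of anterior tissues lie, to its 5′ end, where those of posterior and distal tissues lie. Genes of the same number in different clusters are paralogues that bind closely related DNA. Adult cells, fibroblasts above all, keep a Hox pattern that reflects where they came from, which Polycomb proteins hold silent and Trithorax proteins hold active. Hoxa9, Hoxb9 and Hoxd9 are needed together for growth of the mammary gland in pregnancy.

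The probes were 60 bases long, and some can be placed within a Hox protein by the residues they encode. The probes below are examples in which a reading frame held a known Hox motif, with the codons of the motif in capitals (5′ to 3′, mm9). The YPWM motif of Hoxa6 is the hexapeptide core that contacts the PBX cofactors, ELEKEF lies in the first helix of the homeodomain of Hoxa4, and RRMK lies in the helix that reads DNA.
Hoxa6, chr6:52158194-52158253, minus strand: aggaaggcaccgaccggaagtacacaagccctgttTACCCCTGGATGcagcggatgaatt
Hoxa4, dimmer probe, chr6:52140595-52140654, minus strand: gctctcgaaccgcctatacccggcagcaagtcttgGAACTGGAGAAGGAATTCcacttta
Hoxb4, chr11:96181521-96181580, plus strand: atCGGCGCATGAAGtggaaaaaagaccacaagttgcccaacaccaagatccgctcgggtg
A dimmer probe for Hoxb3 is annotated in the files to a Hoxd3 transcript as well. For the gene with the smallest adjusted p below, Hoxb6, the first 30 bases of its brighter and of its dimmer probe are shown, because the probes gave different differences and lay apart in the gene.
Hoxb6, brighter probe, chr11:96162563-96162622, plus strand: tcgagtctcatttcgtccatgtcccccgtg
Hoxb6, dimmer probe, chr11:96160281-96160340, plus strand: ggtgctatttgacaattcctgcctctgcca

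The authors deposited the output of the scanner for each array and a table of log2 values, with the median of every probe set to 0. Scanner values are given here on a log2 scale where 0 is the 75th percentile of the array, and differences as shGR-19 minus EV-50. The targeted gene, Nr3c1, which encodes GR, had scanner values of 1.81 (replicate 1) and 1.92 (replicate 2) for EV-50, and of 1.46 (replicate 1) and -0.03 (replicate 2) for shGR-19. In the value table it read 0.98 and 0.95 against -0.95 and -0.98, a difference of -1.94 (SE 0.0479, limma adjusted p = 0.00215). The array labelled shGR-19 replicate 1 thus showed little of the depletion in the scanner files. Over the 21172 probes well above background on all arrays, this array differed from the one labelled EV-50 replicate 1 with an SD of 0.225. The SD of the differences within a line was 0.616 for EV-50 and 0.705 for shGR-19. The difference between the value-table columns of EV-50 had a correlation of 0.0533 with that between its scanner arrays, and for shGR-19 it was 0.0255 (across probes, which are not independent). Between the lines, the correlation was 0.883 for the replicate 2 pair and 0.0549 for the replicate 1 pair. The difference between the lines in the table thus followed the scanner arrays labelled replicate 2, while the spread within a line did not match, and both sources are given side by side.

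Most of the Hox probes gave no signal well above background, the flag the scanner software sets where a spot clearly exceeds its surroundings. Of the 50 probes, 28 (56.0%) carried the flag on no array, against 32.7% of all probes, and 12 (24.0%) on all 4, against 51.4%. The EV-50 arrays held 13 and 18 flagged Hox probes, and the shGR-19 arrays 16 and 20. Over all probes EV-50 replicate 1 had a flagged share of 53.3% and the remaining arrays of 61.2% to 62.6%. A probe was kept for testing when it was flagged on both arrays of at least 1 line, which left 16 Hox probes for 14 genes. In all, 19 Hox genes were flagged on no array and 5 on some arrays without being kept.

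Of the 10 Hox genes flagged on all 4 arrays, 6 lay in the Hoxa cluster, 3 in the Hoxb cluster and 1 in the Hoxc cluster, and none belonged to groups 9 to 13. In the Hoxa cluster on chromosome 6, Hoxa3, Hoxa4, Hoxa5, Hoxa6 and Hoxa7 were well above background on all 4 arrays, and Hoxa9, Hoxa10 and Hoxa11 on none. A gene counted through any of its probes, and the dimmer Hoxa3 probe was flagged on no array. In the Hoxb cluster on chromosome 11 the run was Hoxb4, Hoxb5 and Hoxb6, with Hoxb3 on 3 arrays. Hoxb1, Hoxb2, Hoxb7, Hoxb9 and Hoxb13 were on none, and 1 of the probes for Hoxb2 lay on the strand opposite to the cluster. In the Hoxc cluster on chromosome 15, Hoxc4 was seen on all 4 arrays, Hoxc6 on 3 and Hoxc13 on 2, and Hoxc5, Hoxc8, Hoxc9 and Hoxc10 on none. In the Hoxd cluster on chromosome 2, Hoxd12 alone was kept, on 3 arrays, and Hoxd1, Hoxd3, Hoxd8, Hoxd9, Hoxd10, Hoxd11 and Hoxd13 were on none.

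**Figure D1:**
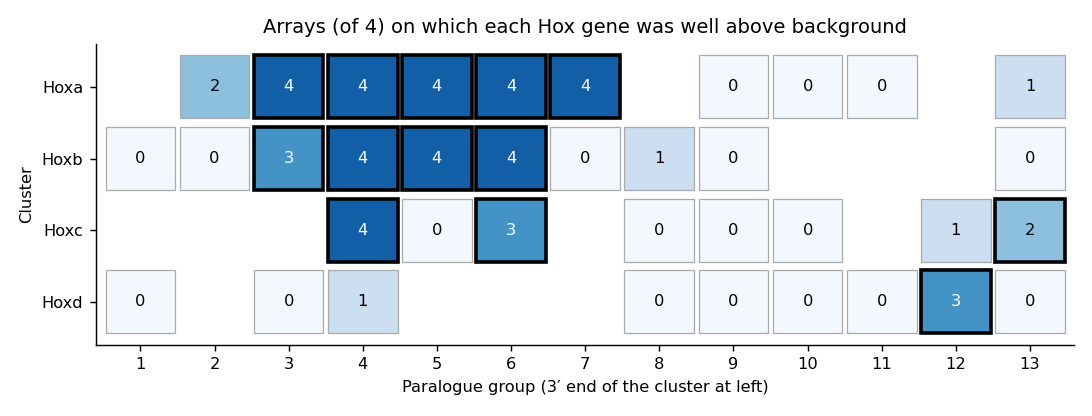
Number of arrays, of 4, on which any probe of each Hox gene was well above background, by cluster (rows) and paralogue group (columns). Thick outlines mark genes kept for testing, and positions without a box have no gene, no probe or no value reported here. The filled runs cover Hoxa3 to Hoxa7 and Hoxb3 to Hoxb6.

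By paralogue group, 3 of the 8 genes of groups 1 to 3, 9 of the 15 of groups 4 to 8 and 2 of the 15 of groups 9 to 13 were kept. The 2 posterior genes were Hoxc13, known for its role in hair and nail, and Hoxd12, a gene of the distal limb. Of the mammary genes Hoxa9, Hoxb9 and Hoxd9, none was flagged on any array. No level can be given for a gene that is not well above background, so this describes detection and not absence.

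Among the genes that were not kept, some were bright on a single array. Hoxc12 had a scanner value of -3.67 for EV-50 replicate 1, where the remaining arrays lay between -8.02 and -7.00. A probe for Hoxb8 stood at -3.07 for EV-50 replicate 2, where the remaining arrays lay between -7.02 and -5.79. Hoxd4 was flagged on the array labelled shGR-19 replicate 2 alone, at -5.56. Each of these probes has 1 spot per array, and these bright arrays had no counterpart in the value table, where Hoxc12 was at 0.04 and -0.04 in EV-50 and at 0.30 and -0.27 in shGR-19. Hoxa2, an anterior gene of the hindbrain, and the dimmer probe of Hoxb3 were flagged on both arrays labelled replicate 2 and on neither labelled replicate 1.

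The 28 Hox probes flagged on no array still had values in the table, and 18 of them were lower in shGR-19, with a median difference of -0.24. All 13473 probes flagged on no array had a median of -0.26, against 0.01 for those flagged on all 4. In the scanner files the median of these 13473 probes was -6.76 for EV-50 replicate 1, and the remaining arrays lay between -8.12 and -7.85. The Hox probes flagged on no array were not tested.

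No kept Hox probe passed an adjusted p of 0.01, the threshold for a call, in either source. With limma (Benjamini-Hochberg adjustment over 24433 kept probes), the value table gave 0 of 16 Hox probes, where 2825 of all kept probes, or 11.6%, were called. At an unadjusted p below 0.05 there were 5 of 16 Hox probes, beside 48.4% of all kept probes. The calls over all probes were 5.52% higher and 6.04% lower in shGR-19, and 4.26% were called with a difference of more than 2-fold, again with 0 Hox probes. At an adjusted p below 0.05 the count was 4 of 16, each higher in shGR-19 and Hoxb4, Hoxb6 and Hoxc6 among them, beside 36.5% of all kept probes. The scanner files gave 0 Hox probes and 0% of all probes, with 0 Hox probes at an unadjusted p below 0.05, where 0.855% of all probes lay.

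Among the 12 Hox probes flagged on all 4 arrays, the value table had 10 higher and 2 lower in shGR-19, with differences from -0.12 to 0.74 and a median of 0.09 (0.01 for all probes flagged on all 4). In the scanner files 10 were also higher and 2 lower, from -0.09 to 0.44. Both shGR-19 values lay above both EV-50 values for 4 of the 12 in the value table, where this held for 36.6% of all kept probes, and for 4 of the 12 in the scanner files, where it held for 11.8%. Both shares cover all kept probes, also those flagged on fewer arrays, so the sets are unlike. In the scanner files Hoxb6 counted by -0.692 (shGR-19 replicate 1) against -0.693 (EV-50 replicate 2) only. The 4 other kept Hox probes, for Hoxb3, Hoxc6, Hoxc13 and Hoxd12, passed the filter through shGR-19 alone. Their place among the kept probes thus already depended on their signal there.

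**Figure D2:**
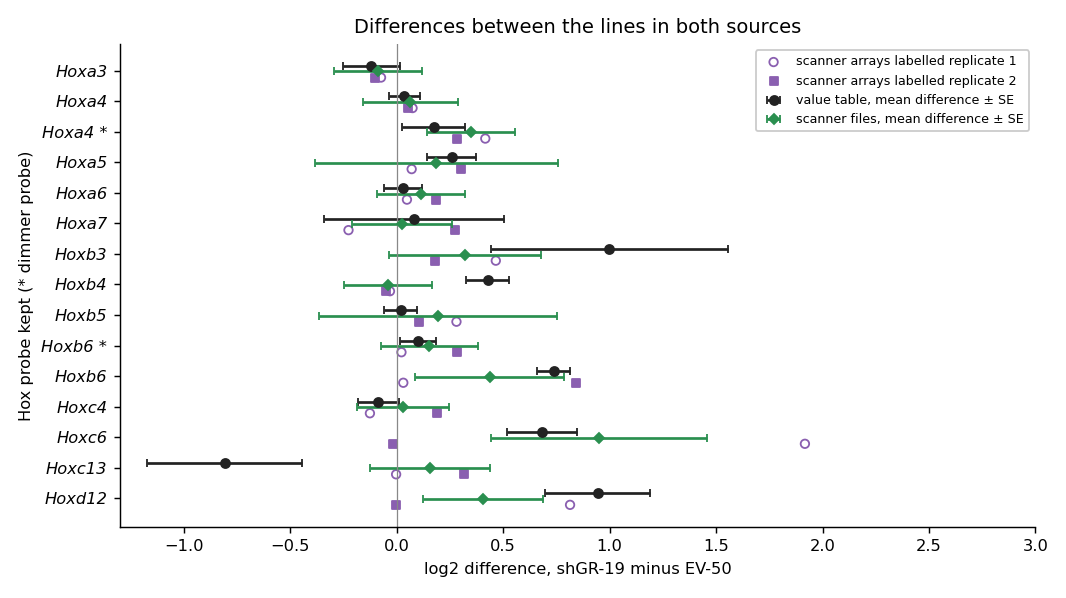
Difference between the lines, shGR-19 minus EV-50 on the log2 scale, for kept Hox probes in the value table (black circles, ± SE) and the scanner files (green diamonds, ± SE), with the differences between the 2 scanner arrays of each replicate label (purple). Hoxb6 was at 0.74 in the value table and at 0.84 between the arrays labelled replicate 2, and Hoxb4 was at 0.43 in the value table and near 0 in the scanner files.

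Hoxb6 gave the smallest adjusted p of the Hox genes. It belongs to the central paralogue groups that pattern the trunk. The brighter probe, which matches its RefSeq transcript, read -0.31 and -0.46 in the EV-50 columns of the value table and 0.38 and 0.31 in those of shGR-19, without overlap. The difference of 0.74 (SE 0.0780), or 1.67-fold higher in shGR-19, had an adjusted p of 0.0104. Scanner values of the same probe were -0.72 and -0.69 for EV-50, and -0.69 and 0.15 for shGR-19. The lines touched there, the array labelled shGR-19 replicate 2 alone stood high, and the difference of 0.44 (SE 0.35) was 0.016 without it. The dimmer probe, nearer the 5′ end of the cluster, differed by 0.10 (SE 0.0840, adjusted p = 0.412) in the value table, with overlap between the lines. In the scanner files the dimmer probe was at 0.15 (SE 0.23), and it is not annotated to a RefSeq transcript. When only probes flagged on all 4 arrays were fitted, the brighter probe passed, with an adjusted p of 0.00417. In that fit 22 genes of the related lists below were called, in place of 14.

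Hoxb4, known for its part in the renewal of blood stem cells, differed between the sources. In the value table it read -0.14 and -0.38 in EV-50 and 0.19 and 0.14 in shGR-19, a difference of 0.43 (SE 0.10, adjusted p = 0.0472), without overlap. Its scanner values were -3.44, -3.49, -3.47 and -3.54 for EV-50 replicates 1 and 2 and shGR-19 replicates 1 and 2, in that order. These 4 arrays lay within a range smaller than the difference in the table, and the fitted difference was -0.04 (SE 0.21). Hoxb5, its neighbour, differed by 0.02 (SE 0.0787) in the value table and by 0.19 (SE 0.56) in the scanner files.

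Hoxb3, a gene of the hindbrain and neck, had the largest difference of any kept Hox probe in the value table, and 1 column carried it. The EV-50 columns read -1.54 and -0.08, and the shGR-19 columns 0.29 and 0.08. Its difference of 1.00 (SE 0.556) had an adjusted p of 0.245, and without the column of EV-50 replicate 1 it was 0.27. Its scanner values were -5.98 and -5.24 for EV-50 and -5.51 and -5.06 for shGR-19, with overlap, and it was not well above background on the array labelled EV-50 replicate 1.

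**Figure D3:**
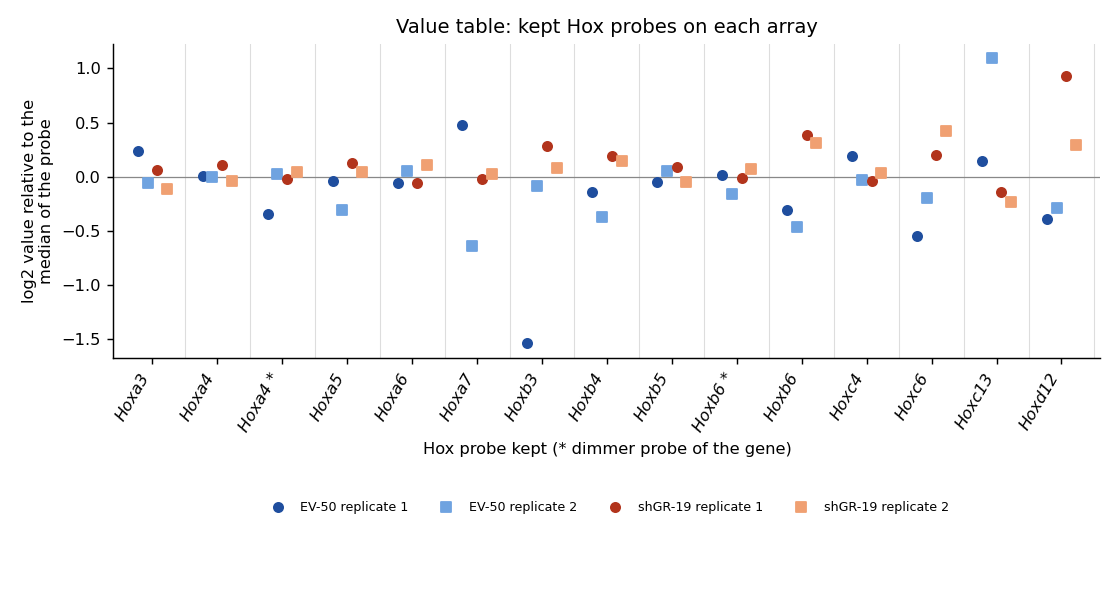
Value of kept Hox probes in the 4 columns of the value table, on a log2 scale where 0 is the median of the probe, with EV-50 in blue, shGR-19 in red and orange, and an asterisk for the dimmer probe of a gene. The shGR-19 points of Hoxb4, Hoxb6 and Hoxc6 lie above both EV-50 points, and Hoxb3 at -1.54 and Hoxc13 at 1.09 show 1 EV-50 column far from the other.

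In the Hoxa cluster the differences were small. Hoxa5, which acts in lung and in mammary epithelium, had value-table readings of -0.04 and -0.31 for EV-50 and of 0.12 and 0.04 for shGR-19, without overlap. The difference of 0.26 (SE 0.114) had an adjusted p of 0.167. Its scanner values were -3.21 and -2.21 for EV-50 and -3.14 and -1.91 for shGR-19. Both arrays labelled replicate 2 were higher than both labelled replicate 1, by 1.00 within EV-50 and by 1.23 within shGR-19, which was more than the difference between the lines of 0.19 (SE 0.57). Hoxb5, the paralogue of Hoxa5, was chosen for its scanner values after they were seen. It read -4.16 and -2.99 for EV-50 and -3.88 and -2.88 for shGR-19, so that it followed the replicate label in the same way. Of the other genes of the Hoxa cluster, the differences were -0.12 (Hoxa3), 0.04 (Hoxa4), 0.03 (Hoxa6) and 0.08 (Hoxa7) in the value table, with SEs between 0.0722 and 0.425 and overlap between the lines for each. The dimmer Hoxa4 probe, shown above, was at 0.17 in the value table and at 0.35 in the scanner files.

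**Figure D4:**
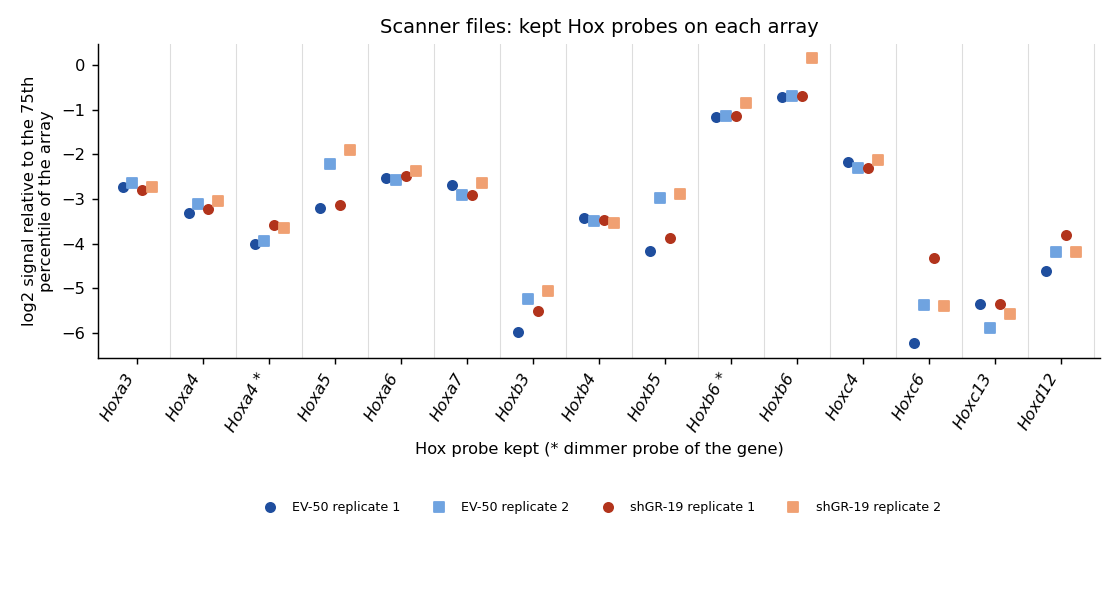
Scanner signal of kept Hox probes on the 4 arrays, on a log2 scale where 0 is the 75th percentile of the array, with colours as for the value table and squares for the arrays labelled replicate 2. Hoxa5 and Hoxb5 separate by replicate label, and Hoxb6 is high on the array labelled shGR-19 replicate 2 alone, at 0.15.

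In the Hoxc cluster, Hoxc6, a gene of the thorax, read -0.55 and -0.20 in the EV-50 columns of the value table and 0.20 and 0.42 in those of shGR-19, without overlap. Its difference was 0.68 (SE 0.163, adjusted p = 0.0495). On the scanner arrays it read -6.23 and -5.37 for EV-50 and -4.31 and -5.39 for shGR-19, the largest difference of the kept Hox probes there, at 0.95 (SE 0.51). It was not well above background on the array labelled EV-50 replicate 1. The array labelled shGR-19 replicate 1 stood high, and the pair labelled replicate 2 differed by -0.02. Hoxc13 was not well above background on either scanner array of EV-50, at -5.36 and -5.89, and flagged on both of shGR-19, at -5.36 and -5.57. The limit set by the lowest flagged signals, averaged over the EV-50 arrays, lay above the mean level of Hoxc13 in shGR-19, so no fold is given. The value table gave 0.14 and 1.09 for Hoxc13 in EV-50 and -0.14 and -0.24 in shGR-19, a difference of -0.81 (SE 0.362, adjusted p = 0.171) that goes against the flags. Hoxc4 differed by -0.09 (SE 0.0965). Neither the Hoxc4 probe nor the Hoxc6 probe is annotated to a RefSeq transcript.

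In the Hoxd cluster, Hoxd12 had value-table readings of -0.39 and -0.29 for EV-50 and of 0.93 and 0.29 for shGR-19, without overlap. Its difference was 0.94 (SE 0.247, adjusted p = 0.0596). The scanner arrays gave -4.62 and -4.18 for EV-50 and -3.80 and -4.18 for shGR-19, with overlap, and the arrays labelled replicate 2 differed by less than 0.01. The higher mean in the scanner files, at 0.41 (SE 0.28), came from the arrays labelled replicate 1.

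Genes that set, hold or read the Hox pattern were compared next, each by its brightest kept probe. The TALE cofactors, the PBX, MEIS and PREP proteins that bind DNA beside Hox proteins, had 7 of 9 genes kept, and 0 were called (median 0.19). For Pknox2, which encodes a PREP protein, the brightest probe differed by 0.19 (SE 0.274), while another probe, at 0.68, was called. All 28 Polycomb genes were kept, with 2 called higher and 2 lower (14.3%, beside 11.6% of all kept probes, median -0.01). Ezh2, the histone methyltransferase of Polycomb complex PRC2, fell by 0.65 on the log2 scale (SE 0.0462, adjusted p = 0.00579), and Jarid2, a PRC2 subunit, rose by 0.61 (SE 0.0512, adjusted p = 0.00734). Of the PRC1 genes, Phc2 rose by 0.63 (SE 0.0458) and Cbx6 fell by 0.51 (SE 0.0516). Of 14 Trithorax and demethylase genes, 0 were called (median 0.02).

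Retinoic acid is the best known inducer of the 3′ Hox genes. A list of 21 genes held those of retinoic acid handling, the Cdx family and Gmnn. Of the 21, 13 were kept, Gmnn among them and none of them a Cdx gene. Of these, 4 were called and all 4 fell in shGR-19 (30.8%, beside 6.04% of all kept probes called lower), with a list median of -0.40. Among them were Dhrs3, a retinal reductase, at -3.32 (SE 0.0459, adjusted p = 0.00120), Cyp26b1, which breaks retinoic acid down, at -1.33, and Rdh10, which makes retinal, at -0.995. By direction, 3 of the 13 were higher and 10 lower. Rara, a retinoic acid receptor, had the largest rise, at 1.24 (SE 0.163, adjusted p = 0.0152), and was not called. In the value table Dhrs3 read 1.65 and 1.66 in EV-50 and -1.65 and -1.67 in shGR-19. On the scanner arrays Dhrs3 read -1.78 and 0.04 for EV-50 and -2.48 and -3.05 for shGR-19, without overlap. For Cyp26b1 and Rdh10 the scanner arrays labelled replicate 1 differed by 0.04 and 0.01, and those labelled replicate 2 by -1.04 and -0.95. Rdh10 acts in making retinoic acid and Cyp26b1 in breaking it down, and no retinoid was measured.

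Of 24 kept genes of limb, head and organ patterning, which were homeobox and T-box genes and Gli3, 4 rose and 2 fell in the value table (25%, beside 5.52% higher and 6.04% lower over all kept probes, median 0.05). The difference from the Hox genes was not tested. Prrx1, of limb mesenchyme, rose by 1.57 (SE 0.0757), Tbx18 by 1.17 (SE 0.0556) and Msx1 by 1.09 (SE 0.0519), and the fourth was Emx1, at 0.61 (SE 0.0525). Pitx1, which marks the hindlimb, fell by 1.64 on the log2 scale (SE 0.0519), and Irx2 fell by 0.82 (SE 0.0522). Pitx1 read 1.63 and 0.97 on the scanner arrays of EV-50 and 1.77 and -0.87 on those of shGR-19, so the array labelled shGR-19 replicate 2 alone was low. Prrx1 read 0.04 and -2.29 on the arrays of EV-50 and 0.02 and -1.02 on those of shGR-19, so that it followed the replicate label. Between the lines, its arrays labelled replicate 1 differed by -0.02 and those labelled replicate 2 by 1.27. In the scanner files 0 genes of these lists were called. The 14 calls of these lists in the value table rest on all 4 columns, 2 for each line. Without 1 of the columns a line is left with a single value, so no count is given for such fits.

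**Figure D5:**
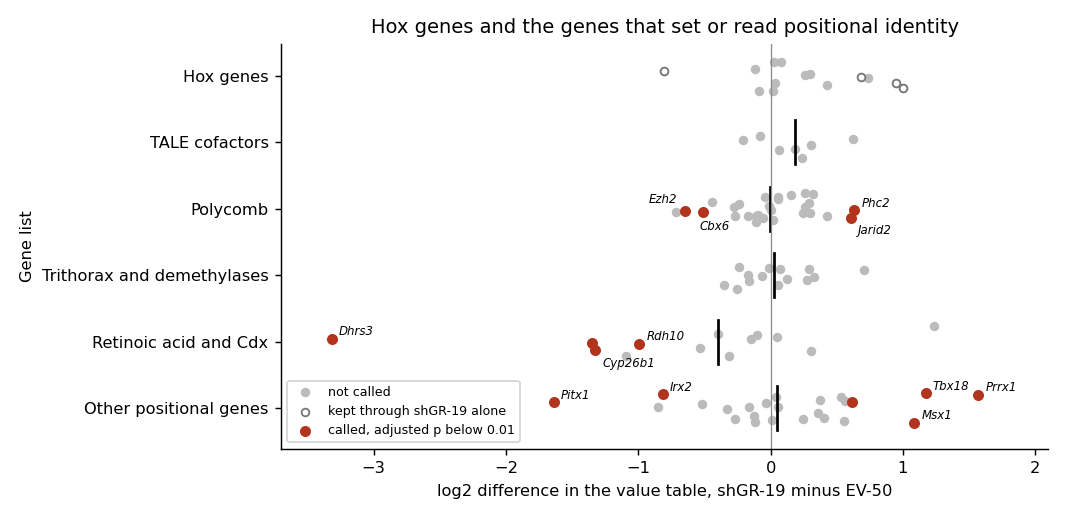
Difference in the value table, shGR-19 minus EV-50 on the log2 scale, of each kept Hox gene and of each kept gene of the lists compared with them (1 point per gene, brightest probe). Red points passed an adjusted p of 0.01, black bars are the medians of the lists other than Hox, and open points are the 4 Hox genes kept through shGR-19 alone. The called points reach -3.32 (Dhrs3) in the retinoic acid list and 1.57 (Prrx1) among the other positional genes, and no Hox point is red.

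Markers of cell types were read beside these genes. Of 8 kept epithelial markers, among them Krt8, Krt18, Epcam and Cdh1, 0 were called, with medians between 5.85 and 6.11 on the scanner arrays. Of 7 fibroblast markers, 2 were kept and both were called higher in shGR-19: Col1a2 by 3.27 (SE 0.0460) and Pdgfra by 1.16 (SE 0.0584). Pdgfra was flagged on 3 arrays and passed the filter through shGR-19 alone. Col1a1, Col3a1, Dcn, Lum and Thy1 were not kept. The summed scanner signal of Col1a2 and Pdgfra, in units of the 75th percentile, was 1.62 and 3.0 on the arrays of EV-50 and 1.59 and 30.5 on those of shGR-19. Col1a2 carried the sum. On the array labelled shGR-19 replicate 2 its scanner value was 4.93, and that of Pdgfra was -2.83. Among 5 kept myoepithelial or basal markers, Krt14 was called, at -1.13 (SE 0.0486). Of the endothelial and immune lists, 1 and 2 genes were kept and 0 were called. The part of these markers in the differences of Hox and other positional genes was not tested.

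The genes beside the Hox clusters were read as well. Within 500 kb of the outermost Hox probes there were 74 kept probes of other genes, of which 8 were called, all lower in shGR-19, beside 11.6% of all kept probes called and 6.04% called lower. The median over the 74 was -0.04. At an adjusted p below 0.05, 9 were higher and 16 lower, beside 36.5% of all kept probes. Of the 8, 2 were for Igf2bp1, beside the Hoxb cluster, at -1.45 and -1.65, and 3 for Cbx5, from -0.90 to -0.67. Cbx5 encodes a heterochromatin protein and lies beside the Hoxc cluster. The others of the 8 were 1 each for Atf7, Tarbp2 and Hibadh, from -0.68 to -0.49. Of 9 other probes inside the clusters 1 was kept, for the cDNA 9530018H14Rik between the probes of Hoxa11 and Hoxa13 (chr6:52206290-52206349, mm9, minus strand, as the Hoxa genes). Its value-table readings were -0.97 and -0.46 for EV-50 and 0.46 and 0.74 for shGR-19, a difference of 1.31 (SE 0.223, adjusted p = 0.0245). On the scanner arrays it read -5.14 and -4.14 for EV-50 and -4.53 and -3.84 for shGR-19, with overlap. This probe was flagged on 3 arrays, so it passed the filter through a single line. Its place among the kept probes already depended on its signal there. Hoxa11 was flagged on no array and Hoxa13 on 1. As for the lists, no count is given for fits without 1 of the columns.

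The DNA before the Hox starts was read from RefSeq (GRCm38.p6) for the 22 Hox genes with an entry, 7 of them kept, as the 250 bases before each start. The hexamer AGGTCA bound by retinoic acid receptors, searched on both strands, was in 6 of 24 Hox starts (25%) and in 14% of all 32851, and among kept genes in Hoxb4 and Hoxc4. The starts of Hoxb4 and Hoxc4 are shown because both genes were seen in these cells, with the matching letters, here on the other strand, in capitals.
Hoxb4, chr11:96318017-96318266, plus strand: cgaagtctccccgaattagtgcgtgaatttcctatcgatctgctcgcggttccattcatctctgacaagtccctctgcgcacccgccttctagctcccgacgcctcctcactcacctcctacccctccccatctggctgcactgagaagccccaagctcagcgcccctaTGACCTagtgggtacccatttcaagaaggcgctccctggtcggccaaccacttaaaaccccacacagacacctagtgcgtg
Hoxc4, chr15:103034145-103034394, plus strand: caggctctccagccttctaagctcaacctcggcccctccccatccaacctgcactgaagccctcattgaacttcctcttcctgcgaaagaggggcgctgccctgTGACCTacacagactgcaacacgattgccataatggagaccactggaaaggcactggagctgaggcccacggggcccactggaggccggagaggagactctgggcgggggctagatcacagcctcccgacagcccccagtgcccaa
The hexamer AGAACA bound by GR was in the starts of Hoxa9 and Hoxa11 (8.33%, beside 16.1% of all starts) and in 0 of the 7 kept genes. The site TGATNNAT, bound by PBX together with Hox proteins, was in 4 Hox starts (16.7%, beside 7.68%), those of Hoxa2, Hoxb1, Hoxb8 and Hoxd11, none of them kept. The Hox starts had a median of 12.5 CpG, against 6 over all starts. A match to these letters is a description of the sequence, and most Hox control lies outside these windows.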

How the data were processed

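RNA of 4 samples, 2 of EV-50 and 2 of shGR-19, was labelled with Cy3 (300 ng each) and put on 4 one-colour Agilent whole mouse genome arrays, which the file headers place on 1 slide and 1 scan. The authors deposited per-spot intensity from Agilent Feature Extraction 10.5.1.1, background-subtracted but not scaled between arrays, with its detection flags. The authors also deposited log2 values from GeneSpring, centred on the median of each probe. The position of the probes follows mm9, as the file headers give it.

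Outlier spots and controls were left out, and spots of a probe were averaged after log2 was taken. The 75th percentile of these log2 values was then subtracted for each array. The filter asked for the well-above-background flag on each array of 1 line or of both, which 24433 of 41163 probes met. The test of shGR-19 against EV-50 was that of limma (version 3.58.1, under R 4.3.3), with Benjamini-Hochberg adjustment over all kept probes, in both sources. The fit was tested on simulated data. Of several probes of a gene the brightest was used. Hox genes with a kept probe were named, with array values for those called, the 8 largest differences in the value table and the 3 largest in the scanner files. List genes were named when called at more than 1.5-fold, at most 5 a list. Emx1, the sixth of its list, Cbx6, below that fold, and the single-array signals, Hoxb5 and the in-cluster cDNA were named after their values were seen. So was Rara, which was not called. The Hox genes and the lists were chosen with earlier results of these data known. Some genes and sequences are counted but not reported here. The number of arrays limits the precision. Alternatives were other background corrections and scalings, filters, variance models, thresholds and tests, a replicate block and each array left out.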

Additional observations from a re-analysis of the deposited data

How the results depend on the processing

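The scanner files gave 0 called Hox probes under every alternative fitted to them. The smallest adjusted p over all kept probes was 0.93 in their main limma fit, so this count is not particular to the Hox genes. In the value table the 0 called Hox probes became 1 (Hoxb6) with only probes flagged on all 4 arrays, 3 (Hoxb6 and Hoxc6 among them) with an intensity trend and a robust prior, and 4 at an adjusted p below 0.05. The 14 called genes of the related lists became 1 with all probes kept, 22 with probes flagged on all 4 arrays, 44 with the trend, 39 at an adjusted p below 0.05 and 7 with more than 2-fold. The 8 neighbouring probes became 0, 18, 26, 25 and 2. Of these, 6 of the 18, 9 of the 26 and 9 of the 25 were higher in shGR-19, unlike the 8. A plain equal-variance test at an unadjusted p below 0.01 gave 21 list genes and 13 neighbours, 3 of the 13 higher. With 1 array left out, a line is left with a single array, and no list or neighbour count is given for these fits. At an adjusted p below 0.05, 36.5% of all kept probes were called in the value table, and 4.26% below 0.01 with more than 2-fold. The share over all probes is not given for the other settings, so the counts there cannot be set against it. The 14 Hox genes kept were 27 when a signal positive and significant over background was enough. The cause was not tested.

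Same-numbered samples deviated together in the scanner files, with a correlation of 0.574, and hardly in the value table, with 0.0559. The labels name no shared batch or day, and 2 pairs do not settle whether the numbers pair the samples. With the number as a replicate block, 0 Hox probes, 0 list genes and 0 neighbours were called, and 1 residual degree of freedom was left.

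Differences that changed sign were all uncalled. In the scanner files these were, with normexp, Hoxa4 (-0.0403), Hoxa7 (-0.0716) and Hoxc13 (-0.12), with quantile normalization Hoxb4 (0.0273), and against the value table Hoxb4 (0.43), Hoxc4 (-0.0860) and Hoxc13 (-0.81). On the arrays labelled replicate 2 alone, a setting added after the data were seen, they were Hoxc6 (-0.0158) and Hoxd12 (-0.00115). With each array left out the ranges in the scanner files were -0.0368 to 0.16 (Hoxa4), -0.43 to 0.80 (Hoxa5), -0.11 to 0.16 (Hoxa7), -0.0468 to 0.69 (Hoxb3), -0.39 to 0.78 (Hoxb5), -0.0595 to 0.12 (Hoxc4) and -0.11 to 0.42 (Hoxc13). In the value table they were -0.27 to 0.0269 (Hoxa3), -0.0388 to 0.11 (Hoxa4), -0.0537 to 0.11 (Hoxa6), -0.48 to 0.64 (Hoxa7), -0.0496 to 0.0868 (Hoxb5) and -0.19 to 0.0214 (Hoxc4).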
